A study of Mus musculus with 18 samples.

Results

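Toll-like receptor 4 (TLR4) is the macrophage receptor for bacterial lipopolysaccharide (LPS), and the 10 genes described here encode the proteins that sit directly around it: the co-receptors Cd14 and Ly96, the adaptors Myd88, Tirap, Ticam1 and Ticam2, the kinases Irak1, Irak2 and Irak4, and the ubiquitin ligase Traf6. They were chosen by name as a signalling module, and all 10 were found among the 24485 genes in the files. CD14 captures LPS and hands it to MD-2, the product of Ly96, which binds LPS in complex with TLR4. At the plasma membrane the sorting adaptor TIRAP recruits MyD88, which assembles IRAK4 with IRAK1 or IRAK2 and engages TRAF6 to activate NF-kappaB and MAP kinases. From endosomes the bridging adaptor TRAM, encoded by Ticam2, recruits TRIF, encoded by Ticam1, which leads to IRF3 and type I interferon.

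RNA-seq was performed on bone marrow derived macrophages (BMDMs) grown from 3 Il10-/- mice on the C57BL/6J background, which the methods of the study describe as 12-week-old males. All groups therefore lacked endogenous IL-10, and no wild-type group was analysed here. Marrow was cultured for 6 days with L929 conditioned medium, a source of the growth factor M-CSF, and the 18 libraries fell into 6 groups of 3. Cells received (+)-JQ1 at 500 nM, recombinant IL-10 at 10 ng/mL or neither for 12 hours. They then received LPS at 50 ng/mL or PBS for 4 hours. The groups are called Unstimulated, JQ1, IL-10, LPS, LPS + JQ1 and LPS + IL-10. The labels call the cells without pretreatment untreated, whereas the methods name a vehicle. (+)-JQ1 blocks the acetyl-lysine binding pockets of BET bromodomain proteins, and IL-10 is an anti-inflammatory cytokine that signals through STAT3. The comparisons ask how LPS changed the module, and whether each pretreatment changed its level with or without LPS.

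Library totals ranged from 6781952 to 28289498 expected counts, and each member had between 27 and 37957 expected counts in every library, so no member was lost to a filter on low values. All 8 macrophage markers examined were detected in every group, with a summed level in TPM (the deposited values, a length-corrected measure of relative abundance) of 23019 to 24750 in Unstimulated, 28499 to 28588 in JQ1, 14218 to 15374 in LPS, 18494 to 21102 in LPS + JQ1 and 15105 to 16472 in LPS + IL-10. Lyz2 alone ranged from 9722 to 24853 TPM and the next highest marker, Cd68, reached 2157 TPM, so the sums mostly follow Lyz2. Itgam did not follow the sum, with means of 309.5 TPM in Unstimulated, 86.26 in JQ1, 196.1 in LPS and 50.25 in LPS + JQ1. Fcgr1 ranged from 9.92 to 495.3 TPM over the libraries. Group levels of the other markers are not given here. The T cell list summed to 0.12 to 0.40 TPM in Unstimulated, 3.88 to 4.46 TPM in LPS and 0.22 to 0.63 TPM in LPS + JQ1. Its highest gene was Lck, at up to 4.46 TPM, whereas Cd3d, Cd3e and Cd3g reached at most 0.25, 0.09 and 0.14 TPM. The B cell and dendritic cell lists summed to at most 5.34 TPM in any library, and the neutrophil gene Ly6g was listed at 0 in all of them. The stromal list summed to 5.04 to 10.3 TPM in Unstimulated and 17.5 to 19.7 TPM in LPS libraries, and to 2.23 to 7.23 TPM in LPS + JQ1. Its widest range was that of Pdgfrb, 0.26 to 14.1 TPM over the libraries. Col1a1 and Col1a2 reached at most 4.45 and 4.81 TPM, and Col3a1 and Dcn at most 1.17 and 1.11 TPM. The neutrophil and progenitor list summed to 22.3 to 79.2 TPM in Unstimulated and 6.80 to 14.5 TPM in JQ1 libraries, with 33.6 to 48.4 TPM in LPS and 11.1 to 24.4 TPM in LPS + JQ1. Of its genes, S100a8 ranged from 2.91 to 37.6 TPM over the libraries, S100a9 from 3.85 to 40.9 TPM and Ltf from 0.04 to 3.11 TPM, Camp reached at most 2.47 TPM, and Elane and Mpo at most 0.15 TPM. The part of these other cells in the results was not tested. In bulk RNA, fewer cells of a type and less RNA per cell cannot be told apart.

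Levels between genes were compared in TPM. Cd14 was the most abundant member in all 6 groups, at 590.2 ± 81.0 TPM (SD, n = 3) in Unstimulated and 1736 ± 161 TPM in LPS. In Unstimulated BMDMs it was followed by Myd88 at 59.4 ± 6.12 TPM and Irak1 at 54.5 ± 3.27 TPM, whose library ranges overlapped. Irak2 at 44.0 ± 2.02 TPM, Irak4 at 35.4 ± 0.658 TPM and Ticam1 at 27.4 ± 1.15 TPM each stood apart from the next. Ly96 at 18.4 ± 4.83 TPM and Ticam2 at 16.7 ± 2.44 TPM overlapped, and Traf6 at 9.79 ± 0.176 TPM and Tirap at 8.97 ± 0.148 TPM were the lowest. After LPS the order changed: Myd88 at 360.4 ± 12.1 TPM and Irak2 at 295.0 ± 3.24 TPM held ranks 2 and 3, each apart from its neighbours. Irak4 dropped from rank 5 to rank 10 at 8.34 ± 1.27 TPM, and its libraries overlapped those of Traf6. Ly96, which ranged from 21.2 to 62.1 TPM after LPS, overlapped both Ticam1 above it and Irak1 below it. In LPS + JQ1 the order of ranks 2 and 3 was reversed, with Irak2 at 176.5 ± 2.03 TPM above Myd88 at 156.0 ± 8.06 TPM and no overlap between them.

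All 10 members were called changed by LPS: 8 rose and 2, Irak1 and Irak4, fell. However, Ticam2 and Traf6 rose only relative to the typical gene. Scaled to total counts they had log2 fold changes of -0.05 and -0.10, neither called. Ly96 was not called with that scaling either, at 0.75. The test was the DESeq2 Wald test with Benjamini-Hochberg adjustment over all genes, with an adjusted p under 0.05 counted as a change. Of 14965 genes tested in this comparison, 31.6% were called higher and 32.9% lower. Scaled to total counts, 5 members were called higher and 2 lower, and of all called genes 20.1% were higher, against 49.0% as normalised here. The sizes of large changes moved too. Over all alternatives listed under processing, log2 fold changes ran from 2.60 to 3.58 for Irak2 and 2.45 to 3.45 for Myd88. They ran from 1.41 to 2.47 for Cd14, -1.43 to -0.45 for Irak1 and -2.22 to -1.21 for Irak4, and were called in each. The median log2 fold change over the members was 1.47, beside -0.07 over all genes tested. The libraries of both groups did not overlap for any of the 10 members, as for 69.3% of all genes tested.

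Irak2, the kinase that sustains signalling after IRAK1, had the largest rise of the module. Its normalised counts in mice 1, 2 and 3 were 995.9, 1001 and 893.6 in Unstimulated and 11683, 11244 and 10299 in LPS. All LPS libraries were far above all Unstimulated ones, a log2 fold change of 3.53 ± 0.08 (SE), or 11.5-fold, with an adjusted p too small for DESeq2 to represent. Myd88, the adaptor shared by most Toll-like receptors, rose from 815.4, 705.3 and 706.5 to 7936, 8067 and 7209 normalised counts. This was a log2 fold change of 3.38 ± 0.07, or 10.4-fold, again with an adjusted p below what DESeq2 can represent. Both genes moved with little spread between mice: the log2 ratio of mouse 1, whose libraries shared a lane, was 3.55 for Irak2 and 3.28 for Myd88, and that of mouse 3, also within a lane, was 3.53 and 3.35. For mouse 2, whose libraries were in different lanes, it was 3.49 and 3.52.

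The stretches just before the annotated start sites of these 2 most induced members are shown because these genes had the largest responses to LPS. RefSeq (build GRCm38.p6) gave such sequences for 7 of the 10 members. The 2 printed here were matched to NCBIM37, the build of the files. They are given 5′ to 3′ on the strand of the gene, with exonic bases left out. The Myd88 stretch lies within an intron of a longer annotated transcript of the same gene, at chr9:119249160-119249386, minus strand. The Irak2 stretch lies upstream of the gene at chr6:113588211-113588460, plus strand. Capitals mark motif matches.
Myd88: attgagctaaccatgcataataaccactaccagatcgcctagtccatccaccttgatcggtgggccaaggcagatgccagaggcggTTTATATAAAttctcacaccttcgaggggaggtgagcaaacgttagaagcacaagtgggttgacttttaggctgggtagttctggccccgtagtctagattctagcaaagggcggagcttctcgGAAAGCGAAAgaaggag
Irak2: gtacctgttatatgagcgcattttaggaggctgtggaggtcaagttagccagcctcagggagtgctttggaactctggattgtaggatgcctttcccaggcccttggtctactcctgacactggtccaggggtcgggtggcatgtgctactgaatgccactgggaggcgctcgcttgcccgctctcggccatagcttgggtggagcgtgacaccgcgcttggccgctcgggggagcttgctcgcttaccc
Both strands of the 250 bases before each start were searched for 4 motifs. These were the NF-kappaB binding consensus, the AP-1 motif TGANTCA, the interferon-stimulated response element (ISRE), written as GAAA, any 2 bases and GAAA, and the TATA box TATAAA. The Myd88 stretch held 1 ISRE match, at positions -40 to -31 from the start site, and overlapping TATAAA matches on opposite strands between positions -164 and -155. The Irak2 stretch held none of the 4 motifs. Among 32851 promoters of the same length, 2.98% held the ISRE motif, 12.4% TATAAA, 7.25% the NF-kappaB consensus and 6.75% the AP-1 motif. A match is a description of these letters and not a measured binding site.

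Both co-receptors rose with LPS. Cd14, which presents LPS to the receptor, had normalised counts of 7015, 5622 and 6304 in Unstimulated and 30385, 34168 and 31114 in LPS. The groups were widely separated, with a log2 fold change of 2.34 ± 0.08, or 5.05-fold (DESeq2 adjusted p = 2.79e-179). Ly96, which encodes the LPS-binding subunit MD-2, was sparse, with 48.6, 45.7 and 70.4 normalised counts in Unstimulated and 114.5, 122.0 and 295.9 in LPS. Mouse 3 was the high library in LPS and again in LPS + IL-10, at 288.5 against 125.9 and 118.6. The log2 fold change of 1.68 ± 0.38 (DESeq2 adjusted p = 2.80e-05) fell to 1.09 without the LPS library of mouse 3 (adjusted p = 0.00479). It was 0.75 when scaled to total counts (adjusted p = 0.0731) and 0.76 on log2(TPM + 1) (limma adjusted p = 0.0822), where it no longer passed.

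The other adaptors rose less than Myd88. Ticam1, the TRIF adaptor that leads to interferon, rose from 510.7, 575.0 and 498.1 to 1692, 1777 and 1486 normalised counts, a log2 fold change of 1.66 ± 0.10 (DESeq2 adjusted p = 1.73e-62). Tirap, which carries MyD88 to the membrane, rose from 290.1, 306.1 and 294.9 to 740.9, 705.2 and 731.8, a log2 fold change of 1.29 ± 0.09 (DESeq2 adjusted p = 1.52e-46). Neither gene had an overlap between the groups. Ticam2, which bridges TLR4 to TRIF, went from 401.1, 323.0 and 392.8 to 697.0, 664.8 and 718.2 normalised counts, a log2 fold change of 0.88 ± 0.10 (DESeq2 adjusted p = 1.31e-16). Scaled to total counts its log2 fold change was -0.05 (adjusted p = 0.688), and on log2(TPM + 1) it was 0.12 (limma adjusted p = 0.344). The rise of Ticam2 was a rise relative to the typical expressed gene, whose median log2 fold change over 11390 expressed genes was -0.03 as normalised here and -0.96 scaled to total counts.

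The kinases moved in opposite directions. Irak4, the kinase that starts the MyD88-dependent cascade, fell from 686.6, 698.5 and 658.3 to 246.0, 317.4 and 259.1 normalised counts. All LPS libraries were below all Unstimulated ones, and its log2 fold change was -1.30 ± 0.09, or 2.46-fold lower (DESeq2 adjusted p = 1.10e-47). Irak1, its substrate, fell from 1292, 1187 and 1213 to 892.1, 913.0 and 816.5, a log2 fold change of -0.50 ± 0.07 (DESeq2 adjusted p = 2.41e-12). Traf6, the ubiquitin ligase downstream of the IRAKs, had 415.0, 446.5 and 406.2 normalised counts in Unstimulated and 715.4, 702.1 and 820.2 in LPS. Its log2 fold change was 0.83 ± 0.10 (DESeq2 adjusted p = 3.88e-16) but -0.10 scaled to total counts (adjusted p = 0.364), so that its direction depended on the scaling as for Ticam2.

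**Figure D1:**
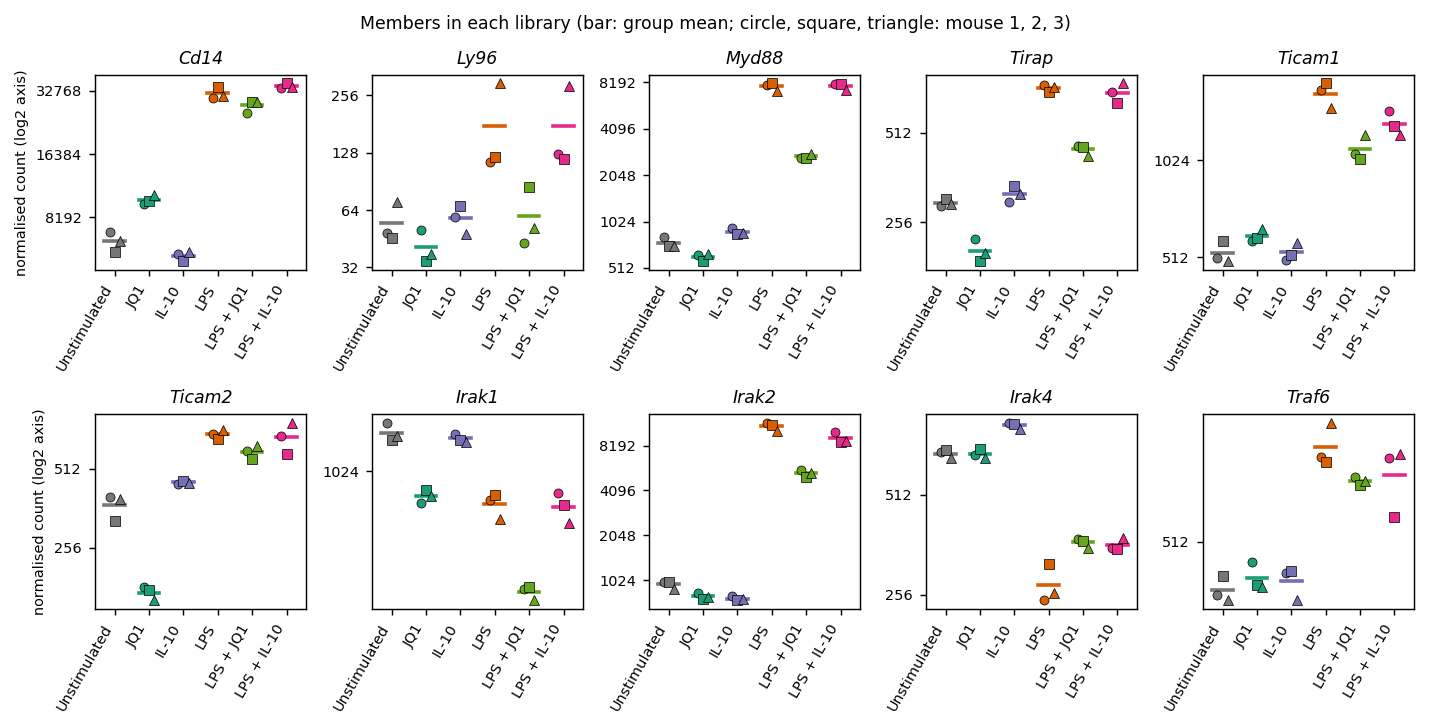
Normalised counts (log2 axis, with its own range in each panel) of the 10 members in the 18 libraries, by group; bars are group means of 3 mice and symbols tell the mice apart. Myd88 and Irak2 sit far higher in the 3 LPS groups and are lower in LPS + JQ1 than in LPS, Irak4 is lowest in LPS, and Ly96 has a high library from mouse 3 in LPS and LPS + IL-10.

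Because these shifts were unequal, the make-up of the kinase and adaptor sets changed, in a measure that does not depend on how libraries are scaled. These shares were chosen after the values were seen. Irak2 made up 32.9 ± 0.766% (SD, n = 3) of the summed TPM of Irak1, Irak2 and Irak4 in Unstimulated and 90.7 ± 0.590% in LPS. Irak1 went from 40.7 ± 0.932% to 6.74 ± 0.257%, and Irak4 from 26.5 ± 0.608% to 2.56 ± 0.352%. In LPS + JQ1 the share of Irak2 was 84.9 ± 0.851% and that of Irak4 6.64 ± 0.318%, and in LPS + IL-10 they were 88.4 ± 0.521% and 3.99 ± 0.414%. Each of these groups was apart from LPS alone. Among the 4 adaptors, Myd88 held 52.8 ± 2.06% in Unstimulated, 81.7 ± 0.208% in LPS, 68.9 ± 0.780% in LPS + JQ1 and 83.7 ± 0.954% in LPS + IL-10. An exact two-sided permutation test gave p = 0.1 for each of these differences from LPS, the smallest value that 3 against 3 libraries allow, so none could pass 0.05.

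**Figure D2:**
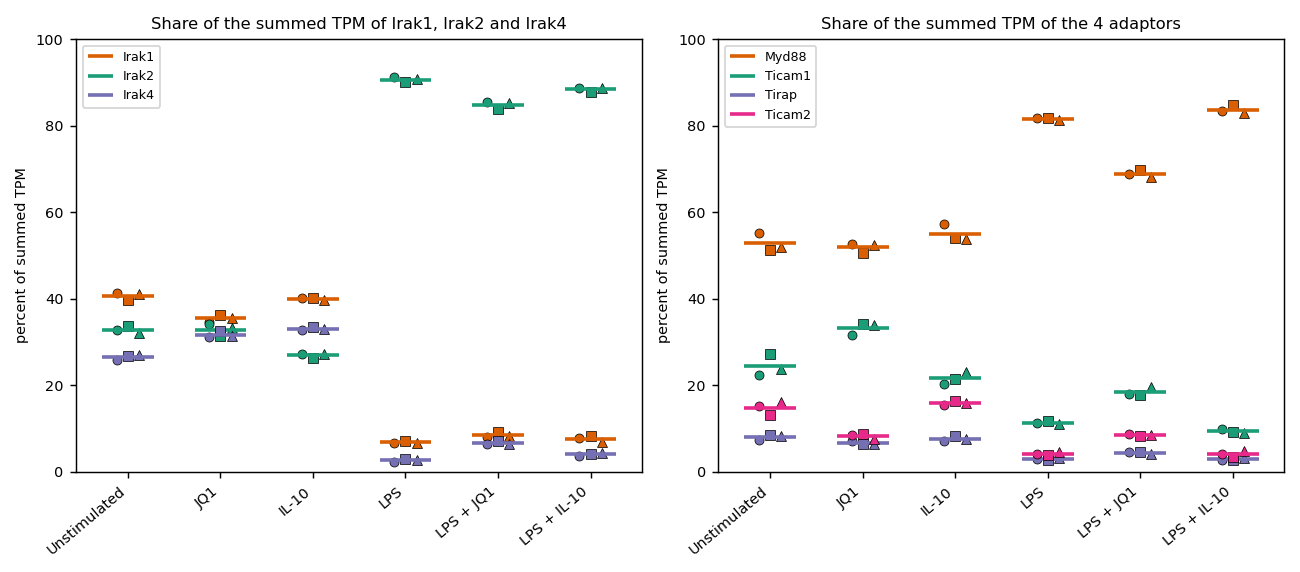
Percent of the summed TPM of the 3 Irak genes (left) and of the 4 adaptors (right) in each library, by group; bars are means of 3 mice and symbols mark mice as circle, square and triangle. Irak2 takes 90.7% of the kinase sum in LPS against 32.9% in Unstimulated, and the Myd88 share is 68.9% in LPS + JQ1 against 81.7% in LPS.

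(+)-JQ1 before LPS lowered most of the module. Of the 10 members, 8 were called lower in LPS + JQ1 than in LPS, 1 (Irak4) higher and 1 (Traf6) not changed by the test. However, the small decreases of Cd14 and Ticam2 turned to small increases, neither called, when scaled to total counts or in TPM. Of all genes tested, 24.4% were called higher and 32.9% lower. The median log2 fold change over the members was -0.59, beside -0.11 over all genes tested. The library ranges of LPS and LPS + JQ1 did not overlap for any of the 10 members, as for 61.8% of all genes tested, and both libraries of each mouse shared a lane.

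Myd88 showed the decrease most clearly, with 2659, 2661 and 2810 normalised counts in LPS + JQ1 against 7936, 8067 and 7209 in LPS. The log2 fold change was -1.51 ± 0.07, or 2.86-fold lower (DESeq2 adjusted p = 1.36e-100). Irak2 had 5662, 5070 and 5360 normalised counts in LPS + JQ1, all below the LPS libraries, a log2 fold change of -1.05 ± 0.08, or 2.06-fold lower (DESeq2 adjusted p = 2.22e-42). Both genes remained well above their Unstimulated levels. Ly96 fell to 43.1, 84.2 and 51.7 normalised counts, a log2 fold change of -1.57 ± 0.39 (DESeq2 adjusted p = 0.000124). Its size rested on the high LPS library of mouse 3, without which it was -0.98 (adjusted p = 0.0147), and it was -0.89 without all libraries of mouse 3 (adjusted p = 0.0120).

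Tirap fell to 463.8, 460.2 and 429.6 normalised counts in LPS + JQ1, a log2 fold change of -0.68 ± 0.09 (DESeq2 adjusted p = 1.68e-14). Irak1 fell to 583.1, 588.7 and 551.5, a log2 fold change of -0.60 ± 0.07 (DESeq2 adjusted p = 3.80e-15). Irak1 was thus lower with LPS and lower again with (+)-JQ1 before LPS. Ticam1 had 1072, 1034 and 1232 normalised counts in LPS + JQ1, all below LPS, a log2 fold change of -0.57 ± 0.10 (DESeq2 adjusted p = 7.97e-09). Irak4 went the other way, to 377.7, 371.7 and 354.5 from 246.0, 317.4 and 259.1, a log2 fold change of 0.41 ± 0.09 (DESeq2 adjusted p = 3.55e-05), and it stayed below its Unstimulated level. Its call was lost without all libraries of mouse 1 (0.33, adjusted p = 0.0558).

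Calls on 3 members were near the threshold. Cd14 had 25708, 29103 and 29137 normalised counts in LPS + JQ1, a log2 fold change of -0.19 ± 0.08 (DESeq2 adjusted p = 0.0357). In TPM it was 1880 ± 200 in LPS + JQ1 and 1736 ± 161 in LPS, and its log2 fold change was 0.19 when scaled to total counts (adjusted p = 0.0616) and -0.07 with edgeR (adjusted p = 0.546). Its call was lost without 5 of the 18 libraries, each left out alone: LPS mouse 2 (adjusted p = 0.200), LPS + JQ1 mouse 1 (0.185), Unstimulated mouse 3 (0.0538), and IL-10 mice 1 (0.0506) and 3 (0.0503). It was also lost without all libraries of any one mouse (0.0712 to 0.185). Ticam2 had 597.5, 558.1 and 625.3 normalised counts, a log2 fold change of -0.22 ± 0.10 (DESeq2 adjusted p = 0.0485), 0.15 scaled to total counts (adjusted p = 0.223) and -0.11 with edgeR (adjusted p = 0.410). Its call was lost without any one of 14 of the 18 libraries, with adjusted p of 0.0553 to 0.173, and held only without Unstimulated mouse 2, LPS + JQ1 mouse 3, or LPS + IL-10 mouse 2 or 3. Without all libraries of any one mouse it was lost too (0.153 to 0.256). Traf6 had 662.6, 641.3 and 650.0 normalised counts, a log2 fold change of -0.20 with a 95% interval of -0.39 to -0.00426 (DESeq2 adjusted p = 0.0753), and it was called without LPS + IL-10 mouse 2 (adjusted p = 0.0352).

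IL-10 before LPS left most of the module near its LPS level. In LPS + IL-10, 3 of the 10 members were called against LPS: Ticam1 and Irak2 were lower and Irak4 was higher. Of all genes tested, 8.38% were called higher and 8.81% lower. The median log2 fold change over the members was -0.03, beside -0.02 over all genes tested, and 3 of the 10 had no overlap between the groups, as had 26.1% of all genes tested. Irak2 had 10068, 8645 and 8756 normalised counts, a log2 fold change of -0.27 ± 0.08 (DESeq2 adjusted p = 0.00261). Ticam1 had 1460, 1313 and 1227, a log2 fold change of -0.31 ± 0.09 (DESeq2 adjusted p = 0.00878). All 3 libraries of each gene were below those of LPS. Irak4 had 354.6, 351.1 and 379.6, all above LPS, a log2 fold change of 0.39 ± 0.10 (DESeq2 adjusted p = 0.000514).

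Myd88 had 8020, 7945 and 7325 normalised counts in LPS + IL-10, all within the range of the LPS libraries, with a log2 fold change of 0.00 and a 95% interval of -0.13 to 0.14 (DESeq2 adjusted p = 0.978). For Cd14 the interval was -0.05 to 0.27, for Tirap -0.21 to 0.12, for Irak1 -0.16 to 0.12, for Ticam2 -0.23 to 0.17, and for Traf6 -0.35 to 0.04. The interval of Ly96 was far wider, at -0.72 to 0.74. With only the LPS and LPS + IL-10 libraries in the fit the 3 calls were lost, at log2 fold changes of -0.26 for Irak2 (adjusted p = 0.168), -0.30 for Ticam1 (0.165) and 0.41 for Irak4 (0.111). On log2(TPM + 1) the calls of Irak2 (-0.16, limma adjusted p = 0.0825) and Ticam1 (-0.19, 0.107) were lost. Without all libraries of a mouse, the Irak2 call was lost for mouse 2 (adjusted p = 0.289), that of Ticam1 for mouse 1 (0.0730) or 2 (0.390), and that of Irak4 for mouse 1 (0.151) or 3 (0.168). The Ticam1 call was also lost when scaled to total counts (adjusted p = 0.0654) and without LPS mouse 1 (adjusted p = 0.0519), LPS mouse 2 (0.0903) or LPS + IL-10 mouse 3 (0.0725).

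**Figure D3:**
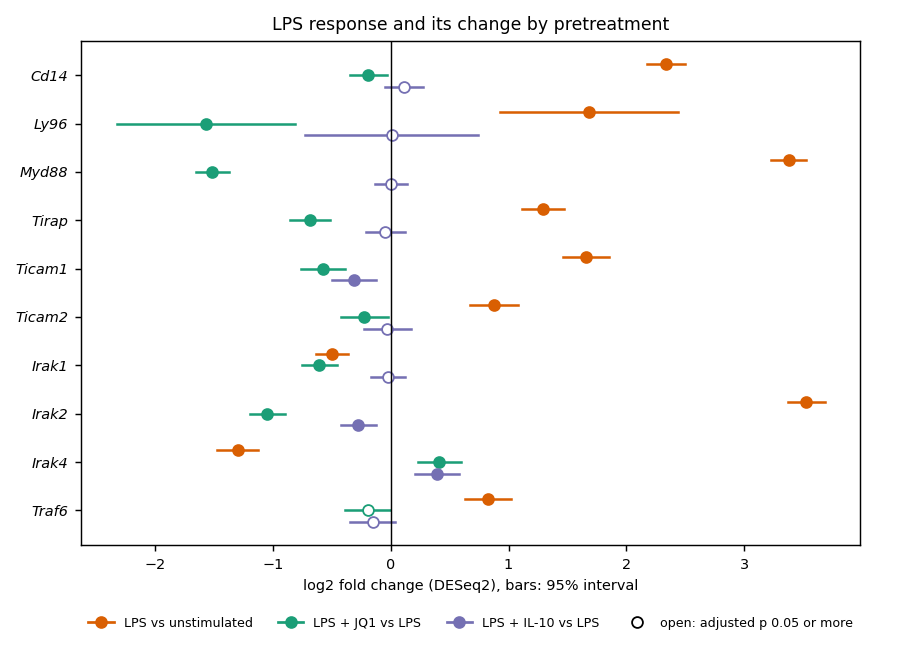
Log2 fold changes (DESeq2) of the 10 members with 95% intervals for LPS against Unstimulated, LPS + JQ1 against LPS and LPS + IL-10 against LPS; filled points have an adjusted p under 0.05. The points for (+)-JQ1 lie left of 0 for 9 members and right of 0 for Irak4, and 7 of the 10 points for IL-10 are open. The last 2 comparisons share the LPS libraries.

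Set against each other in LPS-treated cells, the pretreatments differed for 7 of the 10 members, all 7 lower with (+)-JQ1 than with IL-10, beside 31.6% of all genes tested called lower and 23.8% higher. EdgeR called 5 of the 10, without Cd14 and Ticam1. Myd88 was lower by a log2 fold change of -1.52 ± 0.07 (DESeq2 adjusted p = 3.89e-101), and Irak2 by -0.77 ± 0.08 (adjusted p = 1.89e-23). Tirap, at -0.64 ± 0.09 (adjusted p = 1.08e-12), and Irak1, at -0.58 ± 0.08 (adjusted p = 4.98e-14), were also lower, without overlap of libraries. Ly96 was lower by -1.58 ± 0.39 (adjusted p = 0.000116) and by -0.93 without the libraries of mouse 3 (adjusted p = 0.00856). Cd14 was at -0.30 ± 0.08 (adjusted p = 0.000495), and its call was lost on TPM (limma adjusted p = 0.388) and when scaled to total counts (0.869). Ticam1 was at -0.26 ± 0.10 (adjusted p = 0.0137) with overlapping libraries and at 0.02 scaled to total counts (adjusted p = 0.859). Its call was lost without LPS + JQ1 mouse 1 (adjusted p = 0.0606) or 2 (0.0872) or LPS + IL-10 mouse 1 (0.105), and without all libraries of mouse 1 (0.346) or mouse 2 (0.192). Irak4 had a difference of 0.02 with a 95% interval of -0.16 to 0.20, Ticam2 of -0.20 with an interval of -0.40 to 0.00367, and Traf6 of -0.04 with an interval of -0.23 to 0.15, though Irak4 and Traf6 were higher and called when scaled to total counts, at 0.30 (adjusted p = 0.00255) and 0.24 (adjusted p = 0.0291). Ticam2 was called lower without LPS + IL-10 mouse 2 (adjusted p = 0.00686).

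Without LPS, (+)-JQ1 changed 6 of the 10 members: 5 were lower and Cd14 was higher than in Unstimulated, beside 23.7% of all genes tested called lower and 21.9% higher. The median log2 fold change was -0.28 over the members and -0.00061 over all genes tested. Ticam2 changed most, from 401.1, 323.0 and 392.8 to 180.7, 176.5 and 161.2 normalised counts, a log2 fold change of -1.12 ± 0.12, or 2.18-fold lower (DESeq2 adjusted p = 5.38e-21). Cd14 rose to 9457, 9804 and 10433, all above Unstimulated, a log2 fold change of 0.65 ± 0.08 (DESeq2 adjusted p = 3.36e-14). The decreases of Tirap (-0.52 ± 0.10), Irak1 (-0.44 ± 0.07), Myd88 (-0.29 ± 0.08) and Irak2 (-0.26 ± 0.08) were smaller, with adjusted p from 4.38e-10 to 0.00570. The call of Myd88 was lost without the libraries of mouse 1 (adjusted p = 0.110) or mouse 2 (0.0506), and that of Irak2 without those of mouse 2 (0.184). Irak4 had a difference of -0.00037 with a 95% interval of -0.15 to 0.15 (-0.18 and called when scaled to total counts, adjusted p = 0.0462), Traf6 of 0.08 with an interval of -0.12 to 0.28, Ticam1 of 0.19 with an interval of -0.01 to 0.39, and Ly96 of -0.44 with an interval of -1.22 to 0.34.

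IL-10 without LPS changed 2 of the 10 members, in opposite directions. Of all genes tested, 1.80% were called higher and 1.01% lower. Irak4 had 843.0, 836.0 and 805.0 normalised counts against 686.6, 698.5 and 658.3 in Unstimulated, a log2 fold change of 0.29 ± 0.07 (DESeq2 adjusted p = 0.00573). Irak2 had 794.7, 746.9 and 761.0 against 995.9, 1001 and 893.6, a log2 fold change of -0.32 ± 0.08 (DESeq2 adjusted p = 0.00624). Neither gene had an overlap between the groups, but this held for 5 of the 10 members, including Cd14, Myd88 and Ticam2, which were not called. The share of all genes without overlap was not computed for this comparison. The call of Irak4 was lost with edgeR (adjusted p = 0.0937) and without Unstimulated mouse 3 (adjusted p = 0.0978) or IL-10 mouse 1 (0.111), and that of Irak2 without Unstimulated mouse 1 (0.0542) or 2 (0.0528) or IL-10 mouse 2 (0.0549). Without all libraries of a mouse, the Irak4 call was lost for each of the 3 mice (0.240 to 0.644) and the Irak2 call for mouse 1 (0.0892) or 2 (0.378), and on log2(TPM + 1) the Irak4 call was lost (limma adjusted p = 0.0863). Myd88 was at 0.24 ± 0.08 (DESeq2 adjusted p = 0.0590) and passed with the mouse as a replicate block (adjusted p = 0.0343).

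LPS also acted on pretreated cells. Against JQ1 alone, LPS + JQ1 had 7 members higher and 2 lower, beside 27.6% of all genes tested called higher and 31.0% lower. Irak2 rose by a log2 fold change of 2.74 ± 0.08, Myd88 by 2.16 ± 0.08 and Ticam2 by 1.78 ± 0.11, whereas Ly96, at 0.55 with a 95% interval of -0.23 to 1.33, did not pass. Scaled to total counts the Traf6 value was 0.18 and its call was lost (adjusted p = 0.111). Against IL-10 alone, LPS + IL-10 had 8 members higher and 2 lower, beside 33.2% called higher and 33.8% lower, although Ticam2 and Traf6 were lower, and called, when scaled to total counts (-0.25 and -0.22). Irak2 rose by 3.57 ± 0.08, Myd88 by 3.14 ± 0.07 and Cd14 by 2.68 ± 0.08. Ly96 was at 1.62 ± 0.38 and at 0.97 without the libraries of mouse 3 (DESeq2 adjusted p = 0.00326). Its call was lost when scaled to total counts (0.80, adjusted p = 0.0534) and on log2(TPM + 1) (0.73, limma adjusted p = 0.0951). In both comparisons Irak1 and Irak4 were the 2 members that fell.

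Whether (+)-JQ1 changed the response to LPS was tested by the interaction of both agents, the LPS log2 fold change with pretreatment minus that without. This difference passed for 6 of the 10 members, beside 41.5% of all genes tested. Myd88 responded less, with a difference of -1.22 ± 0.11 (DESeq2 adjusted p = 4.15e-28), as did Cd14 at -0.84 ± 0.11 (adjusted p = 5.51e-12), Irak2 at -0.79 ± 0.11 (adjusted p = 3.86e-11) and Ticam1 at -0.76 ± 0.14 (adjusted p = 3.65e-07). Cd14 was higher with (+)-JQ1 alone but not with (+)-JQ1 before LPS, and its response to LPS was 5.05-fold without and 2.83-fold with pretreatment. The calls of Cd14 (limma adjusted p = 0.0699) and Ticam1 (0.0811) were lost on log2(TPM + 1). Sizes also moved: over all alternatives the difference ran from -1.29 to -0.67 for Myd88 and from -0.84 to -0.23 for Irak2. It ran from -0.93 to -0.28 for Cd14 and from -0.85 to -0.21 for Ticam1. Ticam2 had the opposite sign, at 0.90 ± 0.15 (adjusted p = 4.46e-08), having been lowered by (+)-JQ1 chiefly in cells without LPS. The fall of Irak4 with LPS was smaller after (+)-JQ1, a difference of 0.41 ± 0.12 (adjusted p = 0.00233), a call that was lost without the libraries of mouse 1 (0.31, adjusted p = 0.254) or mouse 3 (0.41, adjusted p = 0.0737). Tirap at -0.16 ± 0.13 and Irak1 at -0.16 ± 0.10 did not pass but were positive and called when scaled to total counts, at 0.39 for each, a scaling that moved the median of all expressed genes in this test from -0.05 to 0.50. Traf6, at -0.27 with a 95% interval of -0.55 to 0.000646, and Ly96, at -1.13 with an interval of -2.22 to -0.04, did not pass after adjustment, though Ly96 passed without LPS mouse 1 (adjusted p = 0.0431), LPS + JQ1 mouse 2 (0.0308) or LPS + IL-10 mouse 3 (0.0484), and without all libraries of mouse 2 (0.0306).

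For IL-10 the same test passed for 1 of the 10 members, beside 7.44% of all genes tested. Cd14 rose more with LPS after IL-10, a difference of 0.34 ± 0.12 (DESeq2 adjusted p = 0.0404). This was lost with the mouse as a replicate block (adjusted p = 0.0532), with edgeR (adjusted p = 0.149) and without any one of 11 of the 18 libraries, where adjusted p ran from 0.0509 to 0.163. It was also lost on log2(TPM + 1) (limma adjusted p = 0.189), with only the groups compared (0.108) and without all libraries of any one mouse (0.0996 to 0.512).

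**Figure D4:**
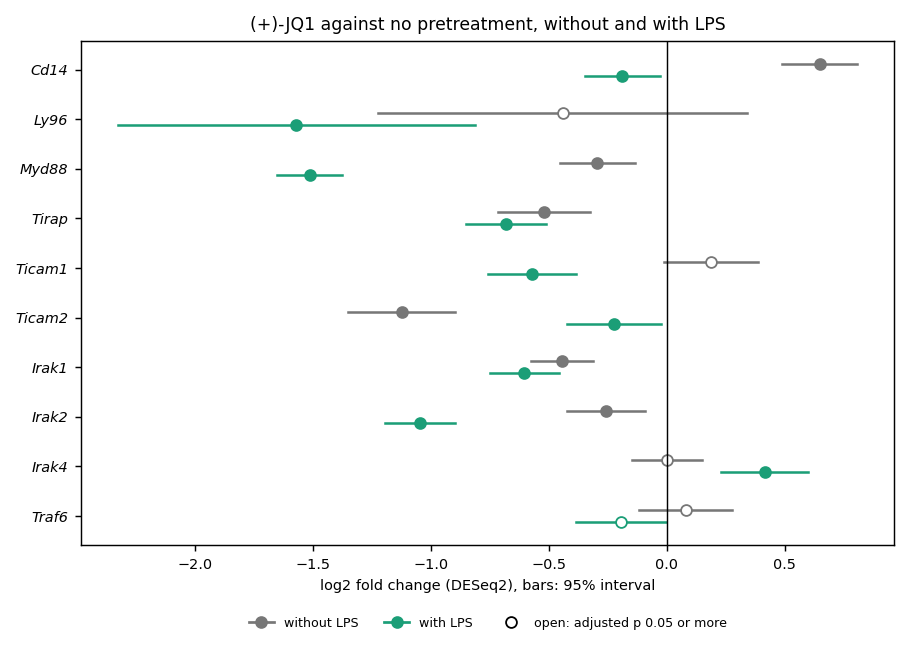
Log2 fold changes (DESeq2) with 95% intervals of the 10 members for (+)-JQ1 against no pretreatment, without LPS (grey) and with LPS (green); filled points have an adjusted p under 0.05. The 2 effects are far apart for Myd88, Cd14, Irak2, Ticam1 and Ticam2, the last being at -1.12 without and -0.22 with LPS. Those of Ly96 are also far apart, at -0.44 without and -1.57 with LPS, but with wide intervals and an interaction that was not called.

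Some members overlap a neighbour in the NCBIM37 annotation, measured over whole gene spans with introns. Reads in the shared stretch could count for either gene. The expected counts of all members were whole numbers in every library, so they show no read split between genes. Myd88 lies at chr9:119245052-119250529 and Irak2 at chr6:113588461-113645003. Ticam2, at chr18:46718809-46734187, overlaps Tmed7, a gene of vesicle transport, on the same strand for 14299 bases. Tmed7 had a log2 fold change of 0.67 ± 0.11 with LPS (DESeq2 adjusted p = 5.92e-10, but -0.26 scaled to total counts) and 0.09 ± 0.11 with (+)-JQ1 alone, where Ticam2 was at -1.12. Whether reads shared by Ticam2 and Tmed7 affect their values was not tested. Irak4, at chr15:94374074-94412246, overlaps Twf1, an actin-binding protein gene, on the opposite strand for 3865 bases, and quantification did not use strand. Twf1 had a log2 fold change of 0.65 ± 0.08 with LPS where Irak4 was at -1.30, but with IL-10 alone it was at 0.42 ± 0.08 (DESeq2 adjusted p = 2.55e-05), the same direction as the 0.29 of Irak4. Whether reads shared by Irak4 and Twf1 affect their values was not tested. Myd88 overlaps Acaa1a, a peroxisomal thiolase gene, for 118 bases on the opposite strand, and Acaa1a had a log2 fold change of 1.02 ± 0.10 with LPS. Irak1 on chromosome X overlaps 2 annotated miRNA genes, and the other 6 members overlap no annotated gene.

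The genes whose log2 normalised counts followed each member most closely over the 18 libraries are given as a description, since the libraries share their groups and scaling. For Irak2 these were Papd7 and Sap30 (Pearson r = 0.999 and 0.998), and for Myd88 Ikbke and Lrrc59 (r = 0.998 and 0.997). For Cd14 they were Tmbim6 and Cnp (r = 0.994 and 0.992), and for Irak4 Rab3il1 and Gatc (r = 0.989 and 0.985). The closest match was weakest for Ticam2, with Cxcl16 at r = 0.963. Among the members, Irak2 followed Ticam1 (r = 0.981) and Myd88 (r = 0.979), and ran opposite to Irak4 (r = -0.970).

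The rest of the TLR4 pathway was described through 45 other genes in 5 lists, with Irak3 in 2 of them. With LPS, 27 were called higher, 8 lower and 10 not, but the split turned to 17 higher and 26 lower when scaled to total counts and to 18 and 18 of 41 on log2(TPM + 1). Over all genes tested, 31.6% were called higher with LPS and 32.9% lower. The 9 genes named by rule for LPS kept their direction under these scalings. On the receptor side 3 of 10 were higher and 3 lower. Cd180, a TLR4-like receptor of B cells and macrophages, rose by a log2 fold change of 1.89 ± 0.14, and Cnpy3, a chaperone that brings Toll-like receptors to the surface, fell by 1.80 ± 0.09. Tlr4 itself, named after its values were seen, fell by 1.17 ± 0.20 (DESeq2 adjusted p = 1.76e-08), from 1045 ± 83.0 to 465.1 ± 149 normalised counts. Of the 16 genes downstream of MyD88, 12 were higher and 2 lower, led by the ubiquitin ligase gene Peli1 at 5.23 ± 0.08 and its relative Peli2 at -3.45 ± 0.14. Of the 8 genes of the TRIF arm 5 were higher and 2 lower, with Tank, a scaffold of TBK1, at 3.52 ± 0.14 and the kinase gene Ikbke at 3.47 ± 0.12. Of the 10 inhibitors 7 were higher, led by Socs1 at 7.89 ± 0.35 and the deubiquitinase gene Tnfaip3 at 6.30 ± 0.12. The adaptor gene Pik3ap1 rose by 2.22 ± 0.08.

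With (+)-JQ1 before LPS, 29 of the 45 were called lower, 7 higher and 9 not, and 21 were lower and 13 higher when scaled to total counts. Over all genes tested, 32.9% were called lower and 24.4% higher, the shares to set beside the list counts below. The receptor side was lower in 9 of 10 genes, including Cd180 at -4.13 ± 0.15, the integrin gene Itgam at -2.27 ± 0.07 and Tlr4 at -1.89 ± 0.21. The list median there was -1.43, beside -0.59 for the members. Of the genes downstream of MyD88, 12 of 16 were lower, with Peli1 at -1.28 ± 0.07 and the kinase gene Map3k8 at -1.17 ± 0.09. In the TRIF arm 3 of 8 were lower and 3 higher, with Ikbke at -1.53 ± 0.12 and Tank at -1.45 ± 0.14. Of the inhibitors 5 of 10 were lower and 2 higher, with Tnfaip3 at -1.68 ± 0.12 and Tnip1, which encodes its binding partner, at -1.25 ± 0.12. Pik3ap1 was at -1.13 ± 0.08. With IL-10 before LPS, 8.38% of all genes tested were called higher and 8.81% lower. Of the 45, 8 were higher and 6 lower, or 11 and 4 scaled to total counts. Among those higher, Irak3, which encodes an IRAK that blocks the cascade and is named after its values were seen, was at 1.05 ± 0.12 (DESeq2 adjusted p = 3.28e-17). Without LPS, (+)-JQ1 gave 10 higher and 15 lower of the 45 (7 and 18 scaled to total counts), and IL-10 gave 5 higher and none lower (7 of the 45 had an unadjusted p under 0.05, and edgeR called 2 in all). The shares over all genes tested were 21.9% higher and 23.7% lower for (+)-JQ1, and 1.80% and 1.01% for IL-10.

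**Figure D5:**
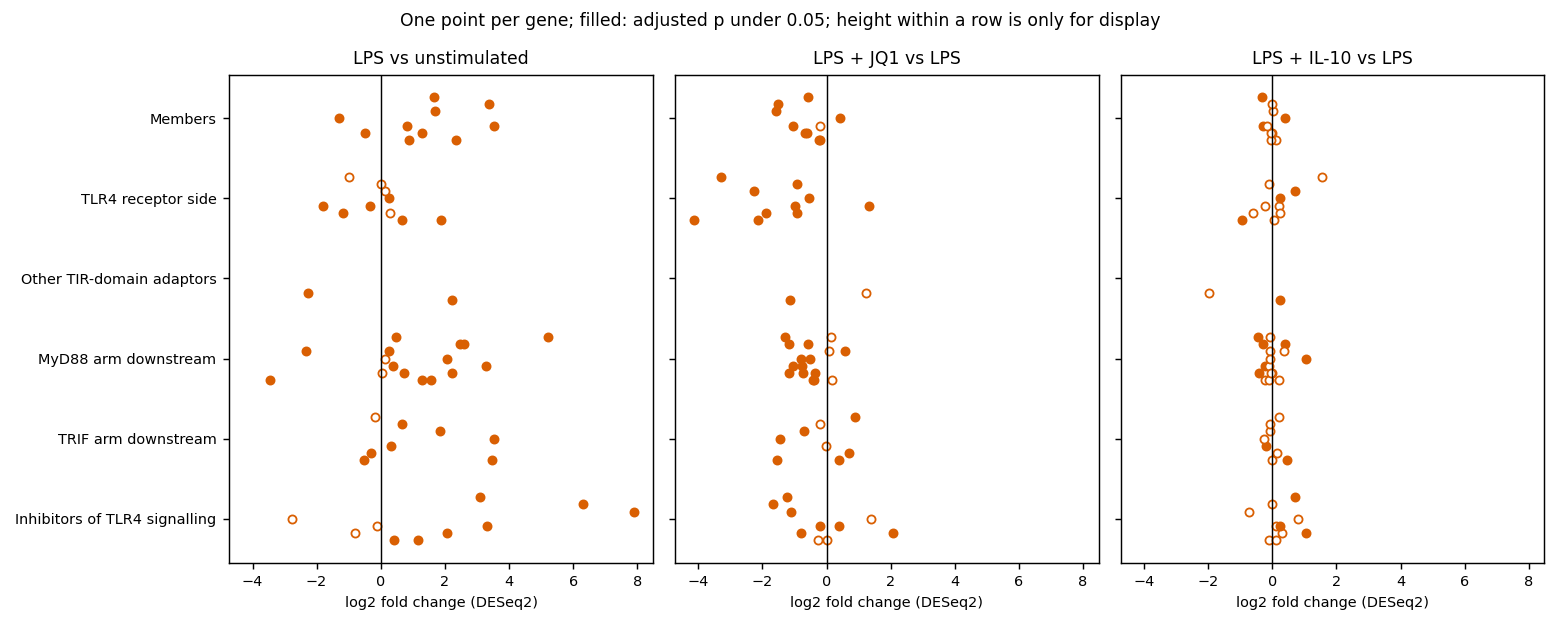
Log2 fold changes (DESeq2) of the 10 members and of the 45 other TLR4 pathway genes by list, 1 point per gene, for LPS against Unstimulated, LPS + JQ1 against LPS and LPS + IL-10 against LPS; filled points have an adjusted p under 0.05 and the height within a list has no meaning. With (+)-JQ1 before LPS, 9 of 10 receptor-side genes and 12 of 16 genes downstream of MyD88 are filled and left of 0, beside 32.9% of all genes tested. The last 2 comparisons share the LPS libraries.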

How the data were processed

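RNA from 18 BMDM libraries was made into ribosome-depleted stranded libraries and sequenced in pairs. Per the methods, the authors removed artefact reads with TagDust, aligned to mm9 with STAR (version not given in the sources used here) and quantified with RSEM 1.2.31 under default settings, which do not use strand. The deposited expected counts are RSEM's estimated reads per RefSeq gene symbol, and the deposited TPM values are scaled by effective length and library. FPKM values were not used.

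Expected counts were rounded and fitted with DESeq2 1.42.0 (R 4.3.3; Wald test over the 6 groups, all 18 libraries, Benjamini-Hochberg adjustment over all genes, threshold 0.05). Alternatives used edgeR 4.0.16, limma 3.58.1 on log2(TPM + 1) or log2(TPM + 0.1) for genes with a mean TPM of at least 1, other scalings, a low-count filter, an effective-length offset, only the groups compared, the mouse as a block, the lane, and left-out libraries. Medians over expressed genes used a mean normalised count of at least 10. The tests were run on simulated counts in which equal numbers of genes were raised and lowered by known amounts. All genes had the same spread there and the typical gene did not shift, so the simulation does not bear on the dependence on scaling. Replicates of a group differed beyond sampling noise, and mouse 3 stood apart over all genes in 2 groups. The chi-square per degree of freedom, larger for less alike libraries, was 26.1 and 30.5 for LPS mouse 3 against mice 1 and 2. Between LPS mice 1 and 2 it was 4.85. For LPS + IL-10 mouse 3 it was 30.0 and 28.8, against 11.2 between mice 1 and 2.

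The members and the pathway and marker lists were chosen with earlier results of these data known. Of the pathway genes, up to 4 per list are named: those called, averaging 100 or more normalised counts, with the largest absolute log2 fold changes, 2 for LPS and 2 for (+)-JQ1 before LPS. Same-numbered libraries came from the same mouse, per the series description. The correlation of their deviations from the group means was 0.12, 0.11 and 0.15 for LPS against Unstimulated and 0.07, -0.07 and -0.12 for LPS + JQ1 against LPS (mice 1, 2 and 3). It was higher for LPS + IL-10 against LPS, at 0.20, 0.28 and 0.47. For IL-10 against Unstimulated it was 0.29, 0.18 and 0.08. Both libraries of mice 1 and 3 shared a lane (7 or 8) in every comparison, whereas those of mouse 2 did not where LPS-treated cells were compared with cells without LPS.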

Additional observations from a re-analysis of the deposited data

Results flagged for a closer look

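The effect of LPS differed with and without pretreatment for 7 results by the interaction term of the DESeq2 fit. For (+)-JQ1 the LPS log2 fold change with pretreatment minus that without was -1.22 for Myd88, -0.84 for Cd14, -0.79 for Irak2, -0.76 for Ticam1, 0.90 for Ticam2 and 0.41 for Irak4. For IL-10 it was 0.34 for Cd14, a call lost with edgeR (adjusted p = 0.149) and with the mouse as a replicate block (DESeq2 adjusted p = 0.0532). The Cd14 call for (+)-JQ1 was lost on log2(TPM + 1) (limma adjusted p = 0.0699). That of Irak4 was lost without the libraries of mouse 1 (DESeq2 adjusted p = 0.254) or mouse 3 (0.0737). The Ticam1 value for (+)-JQ1 was -0.21 scaled to total counts, where it no longer passed (adjusted p = 0.170).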

How the results depend on the processing

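Scaling libraries to total counts moved the median log2 fold change over expressed genes. It went from -0.03 to -0.96 for LPS against Unstimulated and from -0.09 to 0.29 for LPS + JQ1 against LPS. For the interaction with (+)-JQ1 it went from -0.05 to 0.50. The sizes of large and small changes therefore depended on the scaling, and small ones could turn in sign. With that scaling the log2 fold change turned to -0.0498 for Ticam2 and -0.10 for Traf6 (LPS), 0.19 for Cd14 and 0.15 for Ticam2 (LPS + JQ1 against LPS), 0.0221 for Ticam1 and 0.24 for Traf6 (LPS + JQ1 against LPS + IL-10), -0.25 for Ticam2 and -0.22 for Traf6 (LPS + IL-10 against IL-10), and 0.39 for both Tirap and Irak1 (interaction with (+)-JQ1). On log2(TPM + 1) and log2(TPM + 0.1) it turned to 0.11 and 0.11 for Cd14 and 0.0758 and 0.0797 for Ticam2 (LPS + JQ1 against LPS), -0.15 and -0.16 for Ticam2 and -0.12 and -0.13 for Traf6 (LPS + IL-10 against IL-10), 0.34 and 0.34 for Irak1 (interaction), and for log2(TPM + 0.1) to 0.35 for Tirap (interaction).

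Counts of called members moved for the IL-10 comparisons. For IL-10 alone the count went from 2 to 1 with edgeR and both TPM settings, for LPS + IL-10 against LPS from 3 to 1 with both TPM settings and to 0 with only the groups compared, and for the interaction with IL-10 from 1 to 0 with edgeR, both TPM settings, only the groups compared and the replicate block. Of the 45 pathway genes, the count for IL-10 alone went from 5 to 2 with edgeR and 1 with both TPM settings, and for LPS + IL-10 against LPS from 14 to 9 with only the groups compared. Without 1 mouse or 1 library, members called ranged from 0 to 3 for IL-10 alone, 1 to 3 for LPS + IL-10 against LPS and 0 to 2 for its interaction, and pathway genes from 1 to 5 and from 5 to 15. For LPS all 10 members stayed called, and for LPS + JQ1 against LPS 6 to 10. The cause of these shifts was not tested beyond fewer libraries being fitted.

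With the mouse as a replicate block, 10, 6, 3, 9 and 3 members were called for LPS, (+)-JQ1, IL-10, (+)-JQ1 before LPS and IL-10 before LPS, and 0 for the interaction with IL-10. The block changed the call of Myd88 with IL-10 (adjusted p = 0.0343) and of Cd14 in the interaction with IL-10 (0.0532) and no other member's call.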
